A study of Homo sapiens with 6 samples.

Results

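The regions described here were found by the quick run-on protocol on 1M cells and by neither of the other peak lists of the study. The peaks of the 3 deposited lists (published PRO-seq on 1M cells, quick qPRO-seq on 1M cells, and qPRO-seq on 250k cells) on chromosomes 1 to 22 and X were joined wherever they overlapped by at least 1 bp, and a region was kept when its peaks came from the qPRO-seq 1M list alone. The rule gave 12700 members of 34308 joined regions, or 37%, and each member was a single peak. They made up 33.3% of the 38177 peaks in the qPRO-seq 1M list. The deposited dREG score split them into 226 strong members, with a score of 0.8 or more, and 12474 weak members. With each list reduced by score to the size of the smallest, which also takes out low-scoring peaks, the rule gave 2330 members. A shared peak whose partner is cut then becomes a member, and 498 of the 2330 were strong. Members were thus chosen by overlap between the lists and sorted by score, so both are given as description only.

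All libraries came from untreated K562, an established human cell line from a chronic myeloid leukaemia in blast crisis, with erythroid traits, grown in RPMI with serum, and the labels place the biological replicates at least 3 passages apart. Each group had 2 libraries and 1 list: published PRO-seq with 3 affinity purifications on 1M permeabilized cells and 11 cycles of PCR, qPRO-seq with 1 purification on the same input and cycle number, and qPRO-seq on 250k cells with 14 cycles. Adapters carried 6 nt identifiers and reads were 37 nt from both ends. The lists hold no read counts, so depth is unknown, there is no spread between replicates, and a region missing from a list cannot be told apart from one below detection in it. Intervals in parentheses are 95% intervals (Wilson for a share, Newcombe for a difference) that allow for counting error only, and peaks close together do not count as independent. The labels call the line lymphoblastoid. Of 25 erythroid regulators 23 had a start peak from a region other than a member, against 5 of 24 lymphoid and 5 of 24 myeloid genes. GATA1, TAL1, HBG1, HBG2, HBZ and TFRC had a start peak in all 3 lists, and LMO2 in the 2 lists from 1M cells.

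Run-on sequencing reads the nascent RNA held by polymerases in the act of transcribing. At active promoters and enhancers polymerases start in both directions, and dREG is a classifier that scores this pattern of paired initiation along the genome. Promoters of widely expressed genes mostly lie in CpG-rich sequence with SP/KLF, ETS and NF-Y sites, whereas enhancers and cell-restricted promoters in erythroid cells often carry GATA, E-box and AP-1 sites.

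The promoters shown are windows at genes whose start peaks came from members alone: 3 with strong members, then a zinc-finger, a ribosomal protein, a glycophorin, a histone and a germ-line gene from the gene lists. They are from RefSeq on build GRCh38.p14, 250 bases ending at the base before the annotated start, written 5′ to 3′ on the strand of the gene. Capitals mark matches on either strand to 11 motifs: the GATA-factor motif (AGATAA), AP-1 (TGANTCA), E-box (CAGCTG), ETS (CCGGAAG), NF-Y (CCAAT), NRF1 (GCGCATGCG), TATA box (TATAAA), CTCF (AGGGGGCGC), YY1 (AAGATGGCG), SP/KLF (CCCCGCCC) and CACCC box (CCACACCC). Overlapping matches were each counted, and a match is a description of letters, not of a bound site.
METTL7B promoter, chr12:55681486-55681735, plus strand: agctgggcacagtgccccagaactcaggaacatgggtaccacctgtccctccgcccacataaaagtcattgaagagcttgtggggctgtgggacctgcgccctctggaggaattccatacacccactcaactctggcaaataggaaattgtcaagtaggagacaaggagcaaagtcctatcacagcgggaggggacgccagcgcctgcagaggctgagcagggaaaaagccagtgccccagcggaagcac
SH3BGRL promoter, chrX:81201852-81202101, plus strand: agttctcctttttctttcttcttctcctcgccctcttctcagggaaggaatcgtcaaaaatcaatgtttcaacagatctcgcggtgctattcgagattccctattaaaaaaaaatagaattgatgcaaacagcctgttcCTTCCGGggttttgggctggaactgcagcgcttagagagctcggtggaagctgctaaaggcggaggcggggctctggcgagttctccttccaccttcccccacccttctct
TAF9B promoter, chrX:78139651-78139900, minus strand: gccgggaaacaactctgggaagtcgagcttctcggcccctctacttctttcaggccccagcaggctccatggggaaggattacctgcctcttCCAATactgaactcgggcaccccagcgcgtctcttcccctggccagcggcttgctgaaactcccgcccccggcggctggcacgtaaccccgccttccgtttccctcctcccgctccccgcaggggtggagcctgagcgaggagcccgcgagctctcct
ZNF624 promoter, chr17:16653851-16654100, minus strand: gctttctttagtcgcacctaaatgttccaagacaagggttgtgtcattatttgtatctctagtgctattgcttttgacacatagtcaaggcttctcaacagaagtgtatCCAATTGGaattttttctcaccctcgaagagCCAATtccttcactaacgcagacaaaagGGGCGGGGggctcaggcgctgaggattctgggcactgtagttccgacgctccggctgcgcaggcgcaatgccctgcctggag
RPS25 promoter, chr11:119018344-119018593, minus strand: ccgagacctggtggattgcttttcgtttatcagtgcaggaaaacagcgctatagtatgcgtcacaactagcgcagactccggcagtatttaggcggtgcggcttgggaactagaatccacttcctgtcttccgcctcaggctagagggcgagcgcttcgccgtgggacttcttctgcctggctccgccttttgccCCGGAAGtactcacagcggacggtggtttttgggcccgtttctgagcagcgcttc
GYPB promoter, chr4:144019381-144019630, minus strand: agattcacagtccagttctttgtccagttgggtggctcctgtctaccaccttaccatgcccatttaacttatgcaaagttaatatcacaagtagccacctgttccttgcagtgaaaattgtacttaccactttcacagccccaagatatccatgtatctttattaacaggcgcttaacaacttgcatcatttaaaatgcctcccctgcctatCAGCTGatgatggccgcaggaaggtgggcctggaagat
HIST1H3D promoter, chr6:26197287-26197536, minus strand: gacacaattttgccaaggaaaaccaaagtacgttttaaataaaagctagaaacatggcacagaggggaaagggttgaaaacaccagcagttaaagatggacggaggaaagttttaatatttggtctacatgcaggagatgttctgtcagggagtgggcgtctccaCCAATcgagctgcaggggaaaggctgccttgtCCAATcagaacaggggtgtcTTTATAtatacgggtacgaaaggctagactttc
MAEL promoter, chr1:166989030-166989279, plus strand: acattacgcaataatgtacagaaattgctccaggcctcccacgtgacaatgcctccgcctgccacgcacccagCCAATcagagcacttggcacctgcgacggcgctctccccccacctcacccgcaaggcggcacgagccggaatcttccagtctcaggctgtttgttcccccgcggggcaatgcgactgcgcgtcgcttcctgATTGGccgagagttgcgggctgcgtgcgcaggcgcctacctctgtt

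These windows differ in composition. The METTL7B window, 57.2% GC with 6 CG pairs, held none of the motifs, and the strong member (score 0.937) covered all 250 bases. SH3BGRL, a small thioredoxin-fold protein gene, held an ETS match, with 11 CG pairs and a GC content of 49.6%. TAF9B, a subunit of the general transcription factor TFIID, held an NF-Y match at 66.0% GC. The ZNF624 window held 3 NF-Y matches, of which a pair overlap, and an SP/KLF match. The H3 histone gene HIST1H3D held a TATA box match 33 bases before the start, on the strand opposite to the gene, and a pair of NF-Y matches upstream of it. GYPB, which encodes glycophorin B of the red cell surface, held a single E-box match and only 2 CG pairs. MAEL, a gene of the germ-line piRNA pathway, held NF-Y matches on opposite strands, and RPS25, a protein of the small ribosomal subunit, an ETS match.

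Members sat at the lower end of the score range of their own list. The median score was 0.871 for strong members (range 0.801 to 1.16) and 0.400 for weak members (range 0.237 to 0.7995), against 0.666 for the other qPRO-seq 1M peaks. Of 8761 strong peaks in the list 2.58% were members, and of 29416 weak peaks 42.4%. Median widths were 525 bp and 370 bp for strong and weak members and 480 bp for the other peaks, and the members covered 4.98 Mb in all. With the list cut by score into 10 groups of equal size (deciles), the share of members fell at each step from 69.8% in the lowest decile to 0.891% in the highest. Just above the limit of 0.8 lay a member at chr4:38661891-38662480 (score 0.801), inside KLF3-AS1 and 1715 bp from a start of KLF3, a repressor of the Krüppel-like family. Just below it lay a member at chr3:5428561-5429290 (score 0.7995), 96920 bp from the nearest peak of another list.

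**Figure D1:**
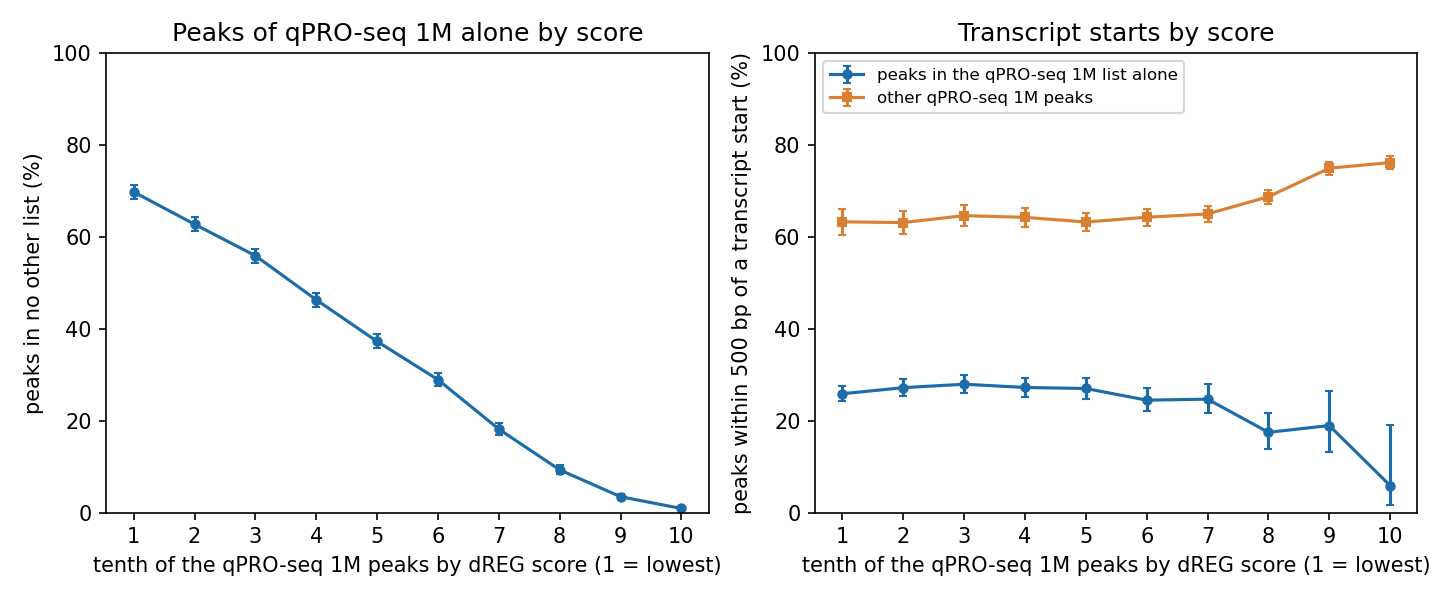
Left, share of the qPRO-seq 1M peaks in each decile by dREG score that no other list overlapped. Right, share of peaks within 500 bp of a transcript start, for members (circles) and other qPRO-seq 1M peaks (squares), with 95% Wilson intervals; the members lie below the others in every decile.

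A p of exactly 0 was deposited for 2466 members (19.4%) and for 5588 of the 25477 other qPRO-seq 1M peaks (21.9%). Among members it did not follow the score. It was given to 34.3% of members scoring under 0.35, to 20.2% of those from 0.35 to 0.5, to 0.134% (4 of 2995) of those from 0.5 to 0.8, and to 12.8% of strong members. No strong member had a p over 0.01, and 3873 weak members and 2331 of the other qPRO-seq 1M peaks did. The deposited p was therefore used only in alternatives.

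Weak members lay beside an element that another list had found more often than strong members did. Of the weak members 33.9% (33.1% to 34.8%) had a peak of another list within 1 kb, and of the strong members 17.3% (12.9% to 22.7%), a difference of -16.7 percentage points (-21.1 to -11.2). Where only an overlap of 50% of both peaks counted as shared, which makes overlapping peaks members, the order turned, with 49.8% of weak and 56.3% of strong members. The median gap was 6790 bp for weak and 16950 bp for strong members. In 149 weak members, and in no strong one, the gap was 0 bp, so that the peaks touched without sharing a base. Beyond 100 kb the intervals overlapped, with 13.1% of weak members (12.6% to 13.7%) and 12.8% of strong members (9.08% to 17.8%). Strong members had a median gap of 17780 bp to PRO-seq 1M peaks and of 25200 bp to qPRO-seq 250k peaks, whose list is shorter (15562 against 24707 peaks).

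**Figure D2:**
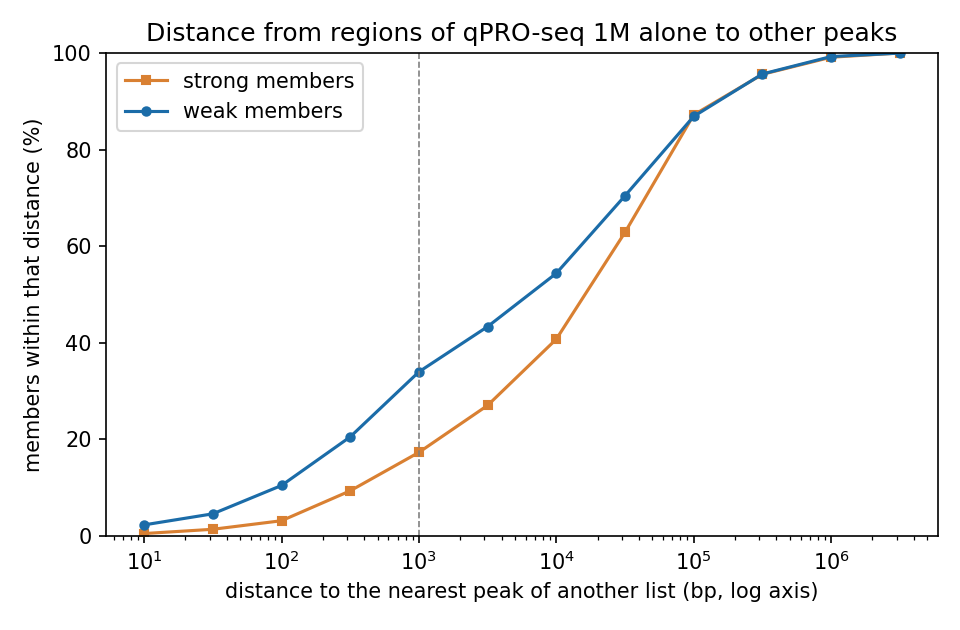
Share of members within a given distance of the nearest peak of another list, on a log axis in bp, for strong (squares) and weak (circles) members; the dashed line marks 1 kb. The strong curve runs below the weak one up to 31620 bp, and both reach about 87% at 100 kb.

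Within the qPRO-seq 1M list, weak members also had shared peaks close by more often than strong members. A further qPRO-seq 1M peak lay 20 bp away, the closest spacing in the list, for 19.5% of weak members (18.8% to 20.2%) and 11.5% of strong members (7.97% to 16.3%). A shared qPRO-seq 1M peak lay within 1 kb of 31.9% of weak (31.1% to 32.7%) and 16.8% of strong members (12.5% to 22.2%). Another member lay 20 bp away for 9.24% of weak (8.75% to 9.76%) and 8.85% of strong members (5.80% to 13.3%), and within 1 kb for 16.0% (15.3% to 16.6%) and 12.4% (8.71% to 17.3%), so that the intervals overlapped. At the edge of the rule, the member at chr1:6554891-6555300 (score 0.441), over a start of the taste receptor gene TAS1R1, touched a PRO-seq 1M peak with a score of 0.945. The shared peak at chr1:1471021-1471440 (score 0.544), 328 bp from a start of ATAD3B, a mitochondrial ATPase gene, overlapped its PRO-seq 1M peak by 10 bp and so was not a member.

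Members lay mostly away from annotated starts. A transcript start was within 500 bp of 17.7% of strong members (13.3% to 23.2%) and 26.4% of weak members (25.6% to 27.2%). Introns held 42.9% of strong and 36.4% of weak members, intergenic sequence 35.4% and 31.2%, and exons 3.98% and 6.03%. Strong members were start-near less often than weak ones (difference -8.68 points, -13.2 to -3.13) and intronic more often by 6.56 points (0.218 to 13.1). Joining peaks within 500 bp, which removes the members beside other peaks, left overlapping intervals. The start-near shares were then 17.3% of strong (12.7% to 23.3%) and 15.9% of weak members (15.1% to 16.7%). For intergenic sequence the interval of the difference held 0 (-1.83 to 10.6). Over 1 kb from other lists, too, the start-near shares were close, 16.04% of strong and 15.55% of weak members. Under the main rule the lower start-near share of strong members ran against the order among the other qPRO-seq 1M peaks. There the start-near share rose from 63.3% in the lowest decile by score to 76.2% in the highest. Among members it was 25.9% in the lowest decile and 5.88% (2 of 34, 1.63% to 19.1%) in the highest.

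The lower start-near share of members was also present among peaks of like score. Within score deciles, members were start-near less often than other qPRO-seq 1M peaks (difference -44.1 points, -45.3 to -42.3), intronic more often by 24.2 points (22.2 to 26.3) and intergenic more often by 17.8 points (15.9 to 19.9). These values weight deciles by size, and weighted by member number the start-near difference was smaller (-37.85 points, -39.04 to -36.62). Against peaks shared by both 1M lists and not found in qPRO-seq 250k (median score 0.534), the start-near difference was -25.9 points (-27.4 to -24.4). Distance to other peaks moved with it: weak members within 1 kb of another list's peak were start-near in 47.5% (46.0% to 49.0%), and those farther away in 15.5% (14.8% to 16.3%). Strong members over 1 kb away gave 16.0% (11.5% to 21.98%).

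**Figure D3:**
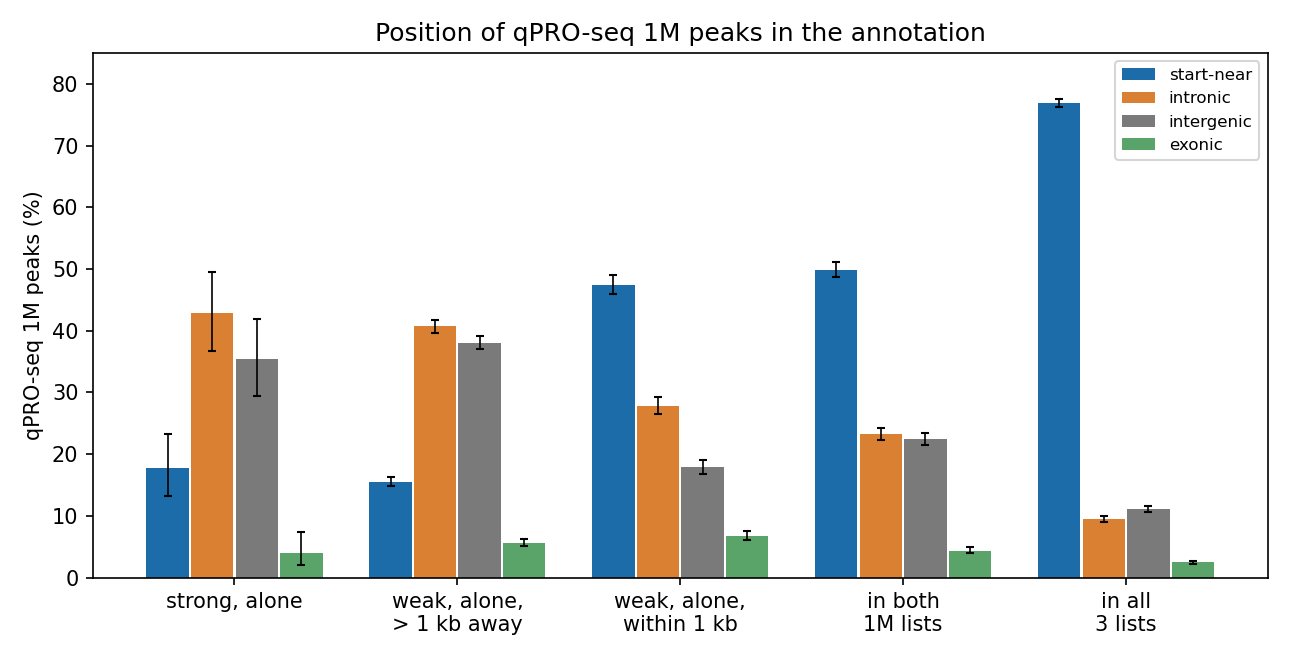
Share of qPRO-seq 1M peaks that were start-near (within 500 bp), intronic, intergenic or exonic, with 95% Wilson intervals, for strong members, weak members split at 1 kb from other lists, peaks of both 1M lists and peaks of all 3 lists. Start-near shares range from 15.5% in weak members over 1 kb away to 76.9% in peaks of all 3 lists.

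Distal members, those not near a start, lay over 10 kb from a start more often than other distal peaks, though the interval of the strong ones overlapped. The share over 10 kb from any start was 43.5% of 186 strong members (36.6% to 50.7%), 41.0% of 9183 weak members (40.0% to 42.1%) and 36.2% of the other distal qPRO-seq 1M peaks (35.2% to 37.3%). Over 50 kb from any start lay 6.45% of strong (3.73% to 10.9%) and 8.06% of weak members (7.52% to 8.63%). The other distal peaks gave 6.35% (5.84% to 6.90%), inside the interval of the strong members. Averaged over score deciles the excess of all distal members was 10.3 points (8.53 to 12.1) at 10 kb and 2.58 points (1.57 to 3.43) at 50 kb. The intergenic share of all distal peaks, exonic ones included, differed little (difference -0.754 points, -2.64 to 1.10). Exonic peaks were rarer among distal members (difference -3.48 points, -4.76 to -2.36). Over all peaks, start-near ones included, members were exonic more often within score deciles (difference 2.06 points, 1.41 to 3.55).

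Intronic members were mostly inside genes whose own promoter was found by every list. Of 84 strong intronic members in protein-coding genes 64 (76.2%, 66.1% to 84.0%) had a host with a start peak shared by all 3 lists, and of 3666 weak ones 65.0% (63.5% to 66.6%). Other intronic qPRO-seq 1M peaks gave 66.4% (64.6% to 68.1%), and the difference within score deciles was -1.91 points (-4.68 to 1.04). Members lay inside 5131 of 19864 protein-coding genes, or 25.8%. Of these genes 3618 held a single member and 90 held 5 or more.

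The gene with most members was RUNX1 (chr21:34787801-36004667, minus strand), the haematopoietic runt-domain transcription factor. It held 19 members among 28 qPRO-seq 1M peaks, of which 16 were intronic and 3 start-near, with scores from 0.290 to 0.859 and a median of 0.351, and 1 was strong. SMYD3, a lysine methyltransferase gene, held 10 members of 13 peaks, 1 of them strong with a score of 0.960, and their median gap to other lists was 152500 bp. KAZN, which encodes the cell-junction protein kazrin, held 11 of 20, ALDH1A2, an enzyme of retinoic acid synthesis, 10 of 20, and PRKCA, protein kinase C alpha, 10 of 16. RUNX1 and KAZN are 1217 kb and 1225 kb long and PRKCA 508 kb, and the part of length in these counts was not tested.

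Along the genome, 2360 of the 2563 windows of 1 Mb with a qPRO-seq 1M peak held a member, with a median of 4. Windows were ranked by number of members, which does not allow for the number of peaks, and over the whole list 33.3% of peaks were members. The fullest window, chr6:27000001-28000000 in the histone and zinc-finger cluster, held 28 members among 152 peaks (18.4%, below the share of the list). None of these members lay within 500 bp of a start in GENCODE release 29, and none was strong. Starts of genes absent from that annotation were not counted. Next came chr10:110000001-111000000, with 25 members of 42 peaks (59.5%). Of these members 5 lay in ADD3, the gamma-adducin gene of the membrane skeleton, and 5 in RBM20, a splicing factor gene. The windows chr19:10000001-11000000, chr1:1000001-2000000 and chr19:1000001-2000000 held 25 members each, of 70, 78 and 99 peaks (35.7%, 32.05% and 25.25%). These windows too had no strong member. In 221 windows members were the only qPRO-seq 1M peaks, at most 6 to a window. By chromosome, the share of qPRO-seq 1M peaks that were members ran from 24.9% on chromosome 19 (23.2% to 26.8%) to 42.4% on chromosome 21 (38.2% to 46.8%). Chromosome 19 also had the highest start-near share of all qPRO-seq 1M peaks, 64.7%.

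The 10 highest-scored members were mostly far from any other list's peak. The highest, at chr10:80358601-80359360 (score 1.16, above 98.4% of the list), lay in an intron of DYDC2, 1798 bp from a start and 48840 bp from the nearest peak of another list. The next, at chr8:9011761-9012460 (1.15), lay 97 bp from a start of ERI1, the exonuclease gene that acts on histone mRNA ends, and 8630 bp from a PRO-seq 1M peak. In CRISP2, which encodes a secretory protein of sperm, an intronic member at chr6:49693681-49694260 scored 1.13, with 46940 bp to the nearest other peak. An intergenic member at chr7:159197241-159197860 (1.11) lay 52283 bp from VIPR2, a receptor gene for vasoactive intestinal peptide, and 166130 bp from other peaks. Another intergenic one, chr2:9830281-9830730 (1.10), lay 12623 bp from TAF1B, a subunit of the RNA polymerase I factor SL1.

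Of the other five, chr1:99599611-99600200 (1.08) lay in an intron of the noncoding LINC01708, and chr10:3095601-3096110 (1.07) in an intron of PFKP, the platelet phosphofructokinase gene. At chr10:28442131-28443010 (1.07) the member covered RN7SKP39, annotated as a small RNA gene of the 7SK family, 59090 bp from other peaks. The intergenic chr1:116504221-116504810 (1.06) lay 39779 bp from CD58, which encodes a cell-adhesion ligand. The last, chr11:63689261-63689770 (1.06), lay in an intron of RTN3, a shaping protein of the endoplasmic reticulum, 5900 bp from a PRO-seq 1M peak. Only 2 of the 10 were thus start-near. The closest of them to another list's peak was the RTN3 member.

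The strong members farthest from other lists lay in long stretches without shared peaks. At chr4:45979591-45980080 (score 0.884) the nearest peak of another list was 1252640 bp away, and the nearest protein-coding start, of the GABA receptor gene GABRG1, 144000 bp. A member at chrX:43176631-43177200 (0.803) covered the start of PINCR, a noncoding RNA known as a p53 target, 1166920 bp from other peaks. The member at chr1:191889051-191889550 (0.847) lay in an intron of an unnamed lincRNA, with 918970 bp to other peaks and 268906 bp to RGS18, a G-protein regulator gene of the platelet lineage. Inside SOX2-OT, chr3:181822621-181823190 (0.830) covered an annotated 5S rRNA pseudogene and lay 832550 bp from other peaks. The fifth, chr4:150316241-150316670 (0.851), lay in LRBA, a vesicle-trafficking gene, 606 bp from a start. None of these lay within 500 kb of a peak of either other list, although own-list neighbours were as near as 1960 bp at LRBA.

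Members near a start differed from other start peaks in the kind of gene. A peak was counted as protein-coding if any start within 500 bp was, otherwise as long noncoding, then as pseudogene, then as small RNA or other. In this order, 24 of 40 start-near strong members were protein-coding, 11 long noncoding, 2 pseudogene and 3 small RNA or other. Among 3291 start-near weak members the protein-coding share was 78.3% (76.9% to 79.7%) and the long noncoding share 14.3% (13.2% to 15.6%), against 90.9% and 6.28% among other qPRO-seq 1M peaks. Within score deciles, members had a lower protein-coding share (difference -11.8 points, -13.4 to -10.3). Their long noncoding share was higher by 7.36 points (6.06 to 8.78) and their pseudogene share by 2.94 points (2.21 to 3.86). Reads at pseudogenes and small RNA copies can belong to near-identical loci, so these assignments are uncertain.

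Position relative to the protein-coding start also differed by strength. The median distance of the peak centre from the start was 79 bp for strong members, 82 bp for other peaks and 293 bp for weak members. Within 100 bp of the start lay 54.2% of 24 strong members, 54.5% of other peaks and 28.7% of 2578 weak members. Centres were upstream of the start in 62.5% of strong members (42.7% to 78.8%), 47.8% of weak members (45.9% to 49.7%) and 63.6% of other peaks (62.9% to 64.4%). Averaged over score deciles, members were within 100 bp less often (difference -7.58 points, -9.66 to -5.41).

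Most genes reached by a member at a start were reached by another peak as well. A member lay at a start of 2551 of 19864 protein-coding genes (12.8%), and 1974 of these (77.4%) also had a start peak from another region. For 577 genes, 2.9% of the total, members alone marked the starts. These genes rested on 536 peaks with a median score of 0.413, and for 546 of them the peak was over 1 kb from other lists. Strong members marked 11 of the 577 genes and weak members 566. At equal list sizes members alone marked 185 genes, which need not all be among the 577.

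The strong members that marked starts alone belonged to genes of varied function. ABCA8, a lipid transporter gene (chr17:68955241-68955840, score 0.963), lay 91490 bp from other peaks, and METTL7B, a methyltransferase gene (chr12:55681441-55681780, 0.937), 21710 bp. BTN3A1, a butyrophilin that presents phosphoantigen signals to gamma-delta T cells, had a member at chr6:26401781-26402370 (0.931). The secreted-factor gene MIA and its readthrough gene MIA-RAB4B shared a member at chr19:40770881-40771650 (0.928), 6030 bp from other peaks. C1orf158 had a member 404 bp from its start (0.877). CTSS, the lysosomal protease cathepsin S, had a member at chr1:150765561-150766030 (0.872) with 67910 bp to the nearest other peak.

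The other four were SH3BGRL (chrX:81201681-81202230, 0.853), the synaptotagmin gene SYT12 (chr11:67006521-67006860, 0.827), TAF9B (chrX:78139471-78139990, 0.807) and the olfactory receptor gene OR8D1 (chr11:124315021-124315360, 0.805). For TAF9B the nearest other peak was 34500 bp away, and for OR8D1 89770 bp. Each of these strong members covered or lay within 500 bp of the annotated start. None of these genes belongs to the erythroid lists.

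Lists of blood-cell genes are short, so at the 2.9% found over all protein-coding genes fewer than 1 gene a list would be marked by members alone, and a count of 0 cannot show a lower share. None of the 25 erythroid regulators, none of the 19 megakaryocyte genes and none of the 22 genes of BCR-ABL1 and STAT5 signalling had members alone at their starts. Of 29 globin, heme and iron genes only HBM, the mu-globin gene, did (score 0.346, 4560 bp from other peaks). Among the red cell membrane genes, GYPB was marked this way (0.410, 504270 bp). GYPB belongs to a family of near-identical copies, so the gene its reads came from is uncertain. A member stood beside another start peak at 6 of the 25 regulators, EPOR, the erythropoietin receptor gene, GFI1B, HEMGN, LMO4, RUNX1 and SOX6. Over all protein-coding genes this held for 1974 of 19864. A start peak other than a member was present at 23 of the 25 regulators but at only 10643 of the 19864 genes, so these counts come from unlike sets. HBD, CD59, DMTN and EPB41 also had a member beside another start peak.

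The lists of other cell types and programmes gave 1 or 2 genes each. Members alone marked GFI1, a myeloid repressor gene (0.455), CD4, a T-cell co-receptor (0.2699), EGR2, an immediate-early factor (0.387), CCL2, a monocyte chemokine (0.430), MAEL (0.396), and the neuronal genes GRIA2, a glutamate receptor subunit (0.482), and MAP2, a microtubule protein (0.390). Each of these is 1 gene of a list of 22 to 30, or 2 of 24 (8.33%) for the neuronal list, beside 2.9% of all protein-coding genes. The scores lie on both sides of the median of 0.413 over all genes marked by members alone. Of 386 olfactory receptor genes 384 had no start peak in any list, 1 had another peak, and OR8D1 was the one marked by a member.

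Large gene families lay on both sides of the 2.9% found over all protein-coding genes. Of 514 zinc-finger genes 30 (5.84%) were marked by members alone, among them ZNF728 (0.756), ZNF624 (0.755), ZNF285 (0.658), ZNF492 (0.650) and ZNF319 (0.616). Of 71 histone genes 5 (7.04%) were, namely HIST2H3C (0.465), HIST2H3A (0.389), HIST1H3D (0.354), HIST1H3C (0.322) and HIST2H2AA4 (0.290). HIST2H3C, HIST2H3A and HIST2H2AA4 belong to a duplicated cluster, and their assignment is uncertain. Of 80 cytosolic ribosomal protein genes 1 was, RPS25 (0.507), while 76 had other start peaks. The olfactory receptor share was 0.259% and the ribosomal protein share 1.25%. These lists were chosen with earlier results known.

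**Figure D4:**
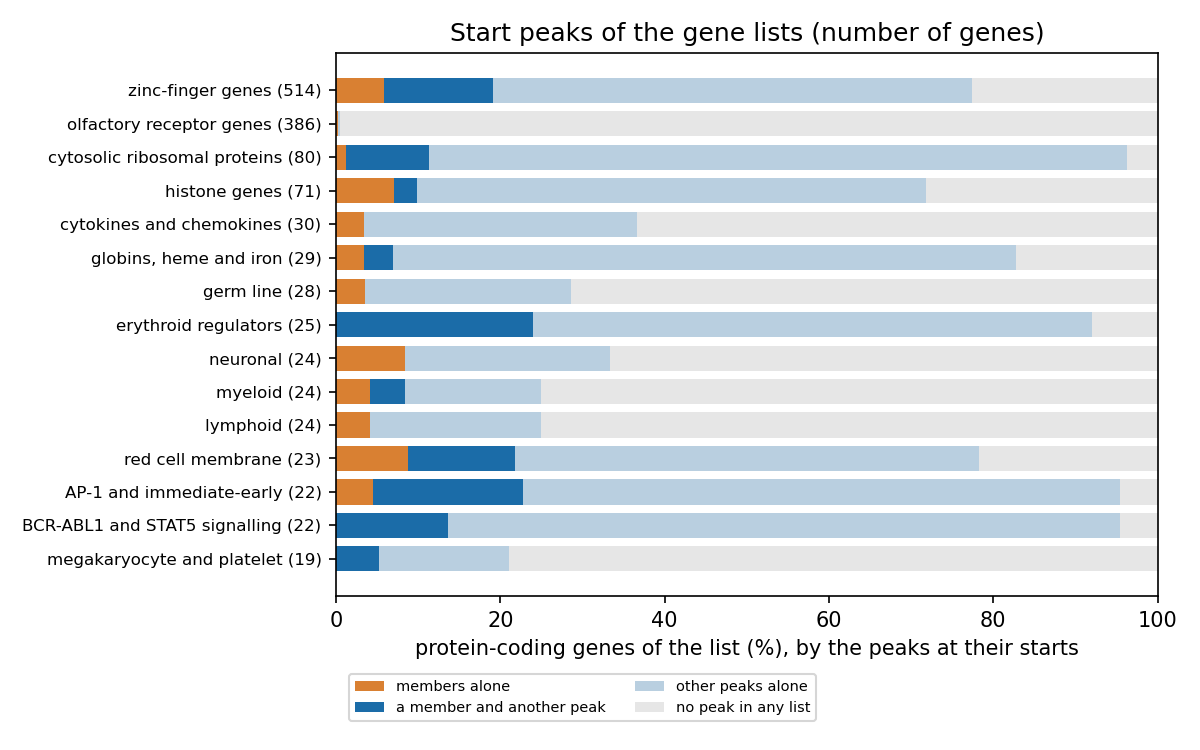
Share of the protein-coding genes of each list (number of genes in brackets) by the peaks at their starts: members alone, a member and another peak, other peaks alone, or no peak in any list. Members alone take 8.33% of the neuronal genes, 7.04% of the histone genes and 5.84% of the zinc-finger genes, where the lists of 19 to 30 genes rest on at most 2 genes each.

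Promoters marked by members alone were poorer in CpG than those found by every list, a property the rule did not use. A window counted as reached where a peak overlapped it by at least 1 bp, so a member can cover little of it. Of 34961 RefSeq promoter windows, each from 250 bases before to 50 after a start, 845 (2.42%) were reached by members alone, and a gene can have several windows. Their median GC content was 59.3% and their median number of CG pairs 16, against 66.3% and 28 for windows reached by regions of all 3 lists and 51.7% and 5 for windows without a peak. A window was called CpG-rich when GC was at least 50% and the observed to expected CG ratio at least 0.6. This held for 51.2% of windows of members alone (47.9% to 54.6%), 89.7% of windows of all 3 lists (89.1% to 90.3%), 24.0% of windows without a peak (23.4% to 24.5%) and 47.0% of all windows. Within deciles by peak score, members alone were lower than other windows with a qPRO-seq 1M peak (difference -29.9 points, -33.6 to -26.1).

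GATA, AP-1, TATA box, SP/KLF and ETS shares differed between windows of members alone and windows of all 3 lists, while NF-Y and E-box shares had overlapping intervals. GATA matches occurred in 10.9% of windows of members alone (8.96% to 13.2%), against 4.14% for all 3 lists and 10.3% of all windows. AP-1 matches occurred in 8.64%, against 3.76% and 7.68%, and TATA box matches in 9.82%, against 4.36% and 11.5%. SP/KLF matches occurred in 26.3%, against 40.4% and 22.8%, and ETS matches in 10.3%, against 22.9% and 10.3%. NF-Y matches occurred in 34.9%, against 37.4% and 34.6%, and E-box matches in 17.8%, against 15.3% and 18.0%. The shares of members alone were thus close to those of all promoter windows for GATA, AP-1, ETS, NF-Y and E-box.

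**Figure D5:**
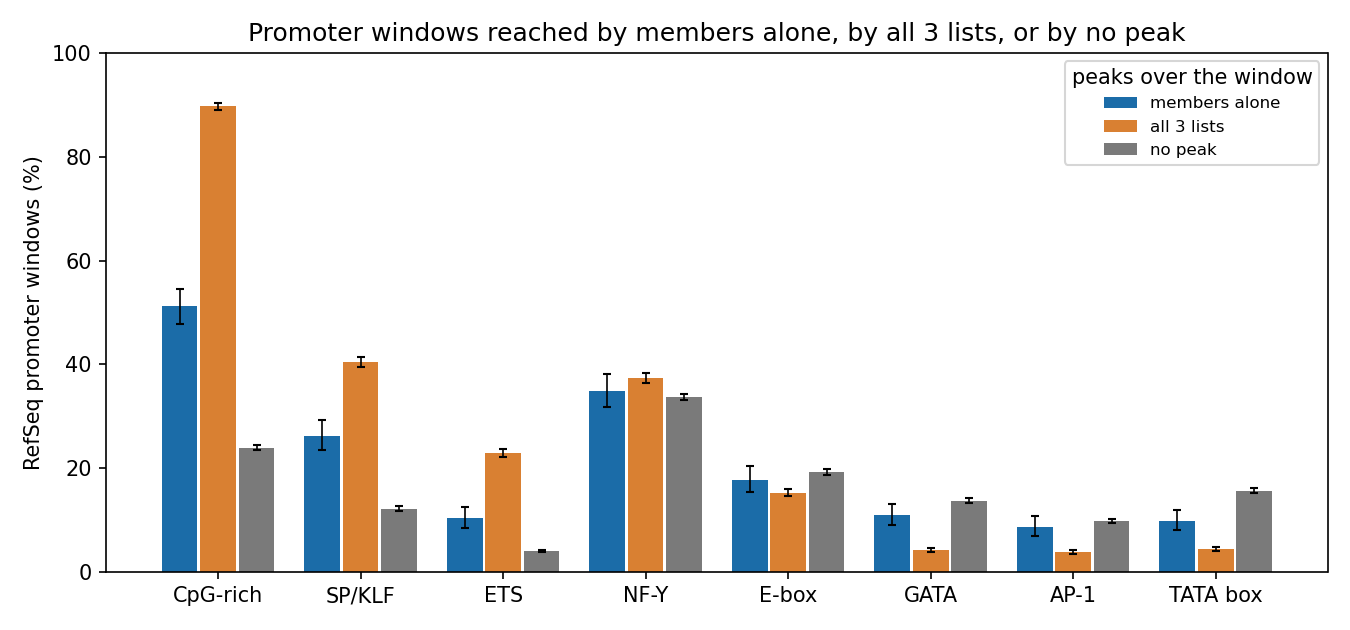
Share of RefSeq promoter windows that were CpG-rich or held a motif match, with 95% Wilson intervals, for windows reached by members alone, by regions of all 3 lists, or by no peak. Windows of members alone lie between the other groups for CpG-rich sequence (51.2% against 89.7% and 24.0%), SP/KLF, ETS, GATA, AP-1 and TATA box.

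Adjusted for score, windows of members alone had more GATA matches than other windows with a qPRO-seq 1M peak by 6.38 points (4.34 to 8.93), more AP-1 matches by 4.05 points (2.17 to 6.45) and more TATA box matches by 5.19 points (3.20 to 7.71). They had fewer ETS matches (difference -5.79 points, -8.20 to -2.96) and fewer SP/KLF matches (difference -18.7 points, -22.2 to -14.9). For E-box, NF-Y, NRF1, CTCF, YY1 and CACCC box the intervals held 0. Split by CpG class and without adjustment for score, the GATA difference was 0.691 points (-0.814 to 2.98) in CpG-rich windows and 5.78 points (1.89 to 10.1) in CpG-poor ones. The AP-1 difference was -0.971 points (-2.01 to 0.881) and 5.11 points (1.497 to 9.20). The SP/KLF difference was -4.33 points (-8.94 to 0.449) and -5.89 points (-9.37 to -1.92), smaller in both classes than the value over all windows. For the TATA box both intervals held 0. NF-Y matches were fewer in CpG-poor windows (difference -7.46 points, -12.7 to -2.03), and YY1 matches in CpG-rich windows (difference -2.94 points, -3.94 to -1.14). ETS matches were fewer in both classes, in CpG-rich windows (difference -7.95 points, -11.1 to -4.19) and in CpG-poor windows (difference -6.80 points, -9.35 to -3.73).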

How the data were processed

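The authors deposited 1 list of dREG peaks for each group of 2 replicate libraries. Pooling and the dREG version are not given in the sources used here. Each peak has a score, deposited by the authors with no fixed unit, and a p-value, also as deposited, with no statement of adjustment. The submitters' processing notes name fastp 0.20.0, Bowtie2 2.3.5.1, deepTools 3.1.3, UMI-tools and the builds hg38 and GRCh38, without roles. How duplicate reads, multi-mapping reads and thresholds were handled decides which weak peaks exist, and is unknown.

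Starts were printed counting from 1. Genes came from GENCODE release 29 (GRCh38), with 500 bp as the limit for start-near. The 3 lists were joined in Python 3.11.15 with pandas 2.3.3 and numpy 2.4.6. Joining and the differences of shares were tested on simulated data. Differences within score deciles averaged the 10 differences, weighted by decile size for annotation classes over all peaks and by member number for distal, host, start-kind, offset and promoter values. An earlier count of 12551 members on these data had joined touching peaks too. Motifs at distal members were not analysed here, and windows around member centres were not used, so the sequences are RefSeq promoters.

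Named were the 10 highest-scored members, the 10 highest at starts marked by members alone, the 5 farthest strong members, the 5 fullest windows and genes, members at the limits of the rule, and list genes marked by members alone, up to 5 a list. Members and lists were chosen with earlier results of these data known. Alternatives are given in the closing section. A gene of the lists is not reported here.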

Additional observations from a re-analysis of the deposited data

Results flagged for a closer look

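On sequences other than chromosomes 1 to 22 and X, which the comparisons left out, the qPRO-seq 1M list held 220 peaks, and 152 of them (69.1%, 62.7% to 74.8%) were in no region of another list. This signal lies outside the main measurement, which is what drew attention to it. Of the 152 peaks 105 lay on alternate scaffolds, 42 of these on scaffolds of chromosome 6, a further 46 on unplaced or unlocalized scaffolds, and 1 on chromosome Y. Scores reached 0.866 with a median of 0.381, and 2 peaks were strong. Reads on alternate scaffolds can also match the primary chromosomes, and the part of that in this count was not tested.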

How the results depend on the processing

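Of 81 alternative values, 50 fell inside the main value's interval, kept the sign and side of 0 of a difference, or stayed within 1.5 times of a count, and 31 did not; no difference between members and other peaks reversed. The cause was not tested where a value moved, though some settings change a share by their own rule. With lists of equal size by score there were 2330 members, 21.4% of them strong, 185 genes marked by members alone, a weak start-near share of 28.6% and a weak share within 1 kb of 24.2%. A limit of 0.01 on p gave 3.48% strong, 29.02% of weak members start-near and 32.7% within 1 kb. Joining peaks within 500 bp gave 2.297% strong, 15.9% of weak members start-near, and 5.102% of strong and 8.05% of weak members within 1 kb. This joining takes out members within 500 bp of another list's peak, so it lowers the shares within 1 kb by construction. Counting only overlap of 50% of both peaks as shared gave 2.54% strong, start-near shares of 35.3% (strong) and 36.2% (weak), and shares within 1 kb of 56.3% and 49.8%. Leaving out low-scoring peaks with a p of 0 gave 2.71% strong and 27.7% of weak members start-near. A strong limit of 0.6 gave 11.8% strong, with 23.7% of strong and 34.97% of weak members within 1 kb. A limit of 1.0 gave 0.173% strong (22 members), with 9.09% start-near and 4.55% within 1 kb. A start window of 1000 bp gave 26.5% (strong) and 37.1% (weak), and protein-coding starts alone 10.6% and 20.7%. Distances between centres gave 9.73% and 27.0% within 1 kb. The start-near difference ranged from -52.5 points, with members over 1 kb away, to -30.2 points, with 50% overlap, and the CpG-rich difference from -36.7, without adjustment for score, to -27.1 points, at the limit on p. Joining touching peaks (12551 members), weighting by members and the CpG-rich alternatives were chosen after seeing the data. The planned differences in GATA and AP-1 motifs at distal members were not run. No paired analysis was possible because each group has 1 list for both of its replicates. Unknown depth limits every count of members, and no value here carries a spread between replicates.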
